A study of Mus musculus with 12 samples.

Results

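The cathepsins and legumain are the main proteases of the macrophage lysosome, and 10 of their genes are described here: Ctsa, Ctsb, Ctsc, Ctsd, Ctsh, Ctsk, Ctsl, Ctss, Ctsz and Lgmn. Members were chosen by gene symbol, which gave 19 of the 46237 probes on the array. All 19 passed the filter on dim probes, among 26748 probes that did. Ctsa has 5 probes, Ctsc has 3, Ctsb, Ctsh and Ctsz have 2 each, and the other members have 1. The platform annotation assigns the 5 Ctsa probes to 2 transcripts and the probes of every other member to 1.

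The samples were CD11b-high macrophages isolated by cell sorting from tumours of mice, and the study asked how their gene expression depends on the sphingosine-1-phosphate receptor S1PR1. The groups were S1PR1 knockout macrophages of PyMT breast tumours (KO_PyMT), wild-type macrophages of PyMT tumours (WT_PyMT), S1PR1 knockout macrophages of MCA fibrosarcomas (KO_MCA) and wild-type macrophages of MCA tumours (WT_MCA), with 2 arrays each. PyMT tumours are a mammary carcinoma model driven by the polyoma middle T antigen. MCA is the labels' name for the fibrosarcoma. All animals were C57BL/6. Mice with PyMT tumours were female and mice with MCA tumours were male, and each tumour was run on a BeadChip of its own, so tumour, sex and BeadChip cannot be told apart. The promoter of any Cre, the age of the mice and how many animals went into a pool are not stated in the sources used here. Total RNA was extracted from pools of sorted macrophages and then amplified. Nothing says that the 2 arrays of a group came from separate pools, so p-values measure the spread between arrays, which may be technical. Another 4 arrays, 1 mixed PyMT control, 2 mixed MCA controls and 1 repeat of the KO_MCA replicate 1 sample on the PyMT BeadChip, entered none of the comparisons reported here. The repeat array was used in 2 alternative fits.

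Between 39.6% and 50.2% of probes were above background per array, meaning a deposited detection p-value under 0.05. The S1pr1 probe was above background on 0 of 12 arrays, so the knockout could not be checked. All 12 macrophage markers were above background on all 8 group arrays. Their summed linear intensity was 8805 to 9315 in KO_PyMT and 8705 to 9584 in WT_PyMT, with 9784 to 10340 in KO_MCA and 10190 to 10960 in WT_MCA. Replicates differed with an SD across probes, on the log2 scale, of 0.73 in KO_PyMT and 0.57 in WT_PyMT, with 0.37 in KO_MCA and 0.45 in WT_MCA. The repeat array differed from KO_MCA replicate 1 with an SD of 0.28, and by -0.33 to 0.54 over the member probes.

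Cathepsins are made as inactive precursors, travel to acidic endosomes and lysosomes by sorting receptors, and mature there by cleavage, in part by legumain. In macrophages they degrade engulfed material and process antigen for MHC class II, and some are secreted and cut matrix proteins. Many lysosomal genes carry a short promoter element with the core CACGTG, an E-box bound by factors of the TFEB, TFE3 and MITF family.

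Promoter windows are shown for the members with the widest and next widest spread of group means, Ctsk and Ctsd, and for Ctsa, whose probes disagreed. Each is the RefSeq sequence of the GRCm38.p6 build from 250 bases before to 50 after an annotated start. The array files name no build. Capitals mark CACGTG in Ctsd (chr7:142387778-142388077, minus strand) and Ctsa (chr2:164833523-164833822, plus strand), and CANNTG in Ctsk (chr3:95498960-95499259, plus strand).
Ctsd: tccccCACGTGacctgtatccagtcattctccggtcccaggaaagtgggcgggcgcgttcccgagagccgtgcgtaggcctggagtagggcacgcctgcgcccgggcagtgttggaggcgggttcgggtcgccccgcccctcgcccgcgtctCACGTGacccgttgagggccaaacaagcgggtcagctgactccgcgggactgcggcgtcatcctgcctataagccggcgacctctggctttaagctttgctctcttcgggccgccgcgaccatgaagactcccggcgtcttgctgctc
Ctsa: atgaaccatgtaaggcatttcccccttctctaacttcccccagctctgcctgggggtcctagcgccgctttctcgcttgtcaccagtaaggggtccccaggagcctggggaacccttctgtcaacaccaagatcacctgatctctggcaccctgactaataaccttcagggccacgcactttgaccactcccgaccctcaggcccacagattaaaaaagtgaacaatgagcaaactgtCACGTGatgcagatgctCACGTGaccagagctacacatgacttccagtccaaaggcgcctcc
Ctsk: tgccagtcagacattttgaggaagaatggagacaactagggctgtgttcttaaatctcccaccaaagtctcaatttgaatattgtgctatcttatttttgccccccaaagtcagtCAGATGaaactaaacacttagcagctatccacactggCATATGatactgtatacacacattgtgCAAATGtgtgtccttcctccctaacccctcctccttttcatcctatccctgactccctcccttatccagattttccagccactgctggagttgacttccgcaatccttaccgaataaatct
The table held 10 windows for 8 members, with none for Ctsb and Ctsh. CACGTG reads the same on both strands and was found in 4 of the 10 windows, against 7.15% of all 32851 windows of the same length. The Ctsd window held 2 sites, 245 and 98 bases before the start. The Ctsa window shown held 2 sites as well, 1 lying 12 bases before the start and 1 just after it. Ctsl had 1 site, 236 bases before its start, and 1 of the Lgmn windows had 1 site, 49 bases before its start. The longer form GTCACGTG, searched on both strands and overlapping CACGTG, was found in 3 of the 10 windows and in 2.25% of all windows. The Ctsk window held no CACGTG and 3 sites of the looser form CANNTG, which was present in 72.3% of all windows and which CACGTG itself matches. A match of letters is a description and not a measured binding site.

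No member changed past the threshold. Of the 19 member probes, 0 were called in any of the 7 comparisons, at an adjusted p under 0.05 in limma with Benjamini-Hochberg adjustment over all 26748 probes. The share of all probes called was 0% for KO against WT in PyMT tumours, in MCA tumours and over both tumours, and 0% for the difference of the knockout effect between tumours. It was 0.0748% for PyMT against MCA tumours in KO macrophages, 0.0262% in WT macrophages and 0.164% over both genotypes. The differences below are therefore given as values and none of them is a called change. Each SE and 95% interval rests on a spread per probe pooled over all 8 group arrays, not only the arrays compared. A probe thus has the same SE in both tumours, although PyMT replicates differed more than MCA replicates. Apart from Ctsk, every member had its brightest probe above background on all 8 group arrays. The plot of brightest probes shows group means of 9 of the 10 members lying within 1 log2 unit of each other, with Ctsk the exception.

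**Figure D1:**
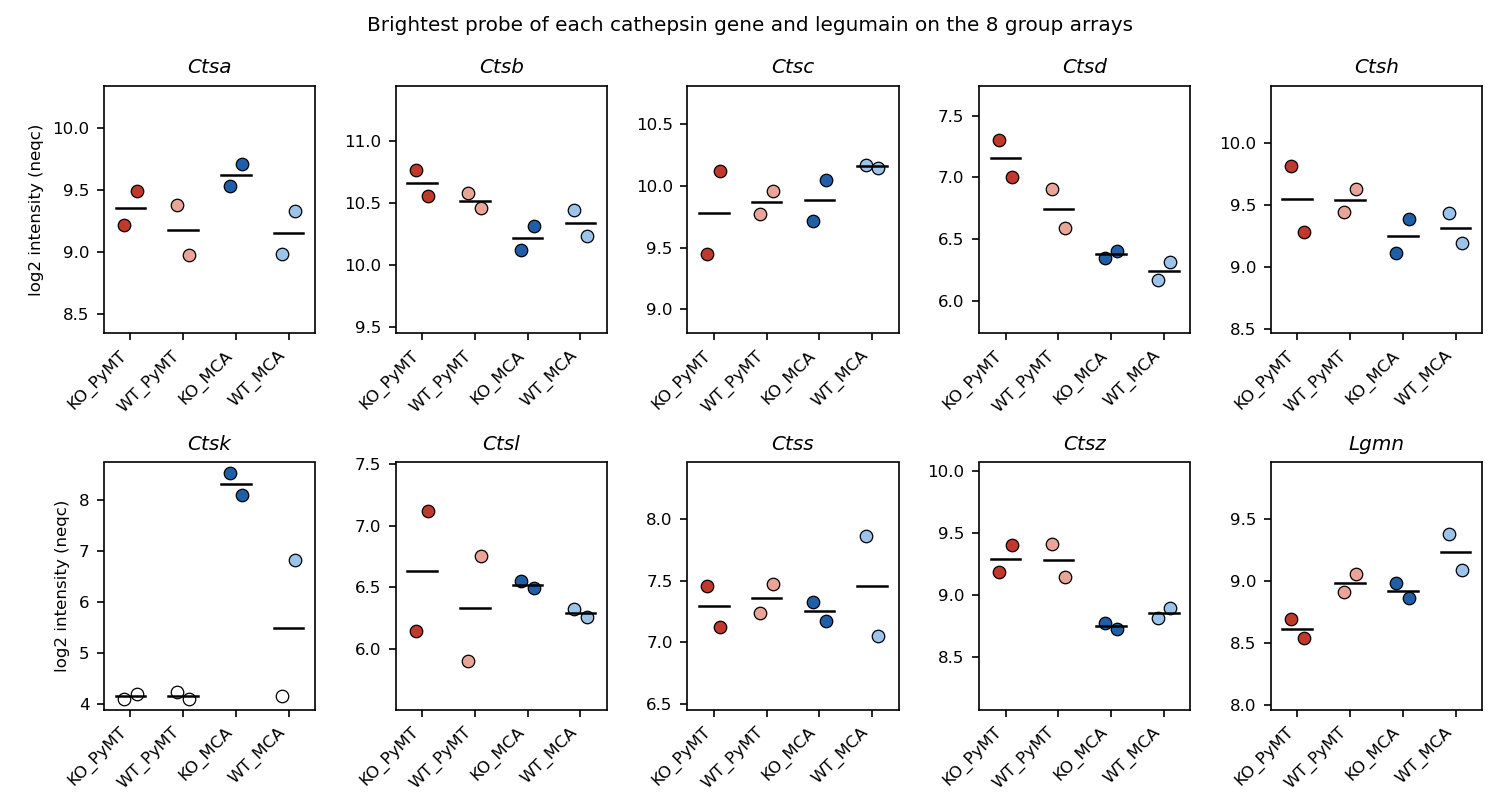
Log2 intensity after neqc normalization (vertical axis) of the brightest probe of each member, by group, with 1 point per array and a bar at the group mean. Open points are not above background. Vertical scales differ between genes and no level is comparable between genes. Ctsk reached 8.10 to 8.55 in KO_MCA and stayed at 4.09 to 4.23 in all 4 PyMT arrays, and Ctsd is the member whose 4 groups do not overlap.

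Ctsk encodes cathepsin K, a cysteine protease known for collagen degradation by osteoclasts. Its probe read 4.10 and 4.20 in KO_PyMT, 4.23 and 4.09 in WT_PyMT, 8.55 and 8.10 in KO_MCA, and 4.17 and 6.83 in WT_MCA, in log2 intensity. It was above background on both KO_MCA arrays and on WT_MCA replicate 2, and on no other group array. Both KO_MCA arrays thus lay above both WT_MCA arrays, which themselves differed by 2.66 log2 units. The MCA arrays outside the groups gave 8.50 on the repeat of KO_MCA replicate 1, and 5.14 and 6.58 on the mixed MCA controls, all above background. The mixed PyMT control gave 4.16, not above background. KO minus WT in MCA tumours was 2.83 ± 0.75 log2 units (SE, n = 2 arrays each, 95% interval 1.04 to 4.61). Its adjusted p was 1 in limma with Benjamini-Hochberg adjustment, and 0.00736 before adjustment. The difference was 1.496 without WT_MCA replicate 1, and 1.62 with no background correction. Without WT_MCA replicate 2 the wild-type arm was a single array not above background, and no size is given. In PyMT tumours all 4 arrays were at background and no fold is given.

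Between tumours the mean Ctsk level was lower in PyMT. As the PyMT arrays were not well above background, only a bound is available: in KO macrophages the PyMT level was at least 16.05-fold lower than in MCA, taking on each PyMT array the higher of the probe's own signal and the lowest signal above background. That bound depends on the background correction, since the fitted difference of -4.17 log2 units was -2.65 under normexp with an offset of 50, -2.18 with no background correction and -2.16 in the authors' normalized values. This difference did not pass the threshold, with an adjusted p of 0.114 in limma with Benjamini-Hochberg adjustment. Over both genotypes the adjusted p was 0.152 and in WT macrophages it was 0.719. No bound is given for these, because only 1 of the 2 WT_MCA arrays measured the probe. The fitted difference over both genotypes was -2.76 log2 units, and -1.35 in the authors' normalized values. In WT macrophages the fitted difference was -1.34, and -2.67 without WT_MCA replicate 1. Without WT_MCA replicate 2 only arrays at background were left to compare, and no size is given. Leaving out either WT_MCA array kept the difference in KO macrophages at -4.17 log2 units and changed its SE from 0.75 to 0.224. The WT_MCA arrays enter that comparison only through the pooled spread, to which a single WT_MCA array adds no gap between replicates. Over both genotypes the fitted difference was -3.57 without WT_MCA replicate 1. On the PyMT BeadChip itself, the repeat array of KO_MCA replicate 1 gave 8.50, against 8.55 for the same sample on the other BeadChip. No size is given for the difference of the knockout effect between tumours, as its PyMT side lay at background. It was not called, with an adjusted p of 0.836.

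Markers of other cells moved with Ctsk in part. Of the 10 fibroblast and sarcoma markers 9 were measured, and their summed linear intensity was 517.5 to 623.9 in KO_PyMT and 307.3 to 449.1 in WT_PyMT, with 628 to 702.4 in KO_MCA and 398.9 to 2624 in WT_MCA. The highest sum was that of WT_MCA replicate 2, the WT_MCA array with the higher Ctsk, while both KO_MCA arrays with still higher Ctsk had lower sums. Pdgfrb did not pass the filter. Col1a1, a collagen gene of fibroblasts, read 6.28 and 6.34 in KO_MCA and 4.84 and 8.91 in WT_MCA, and was above background on no PyMT array. It does not stand for the list, of which 4 to 6 markers were above background on KO_PyMT arrays and 4 to 5 on WT_PyMT arrays. By group means in MCA, 0 of the 9 measured markers were higher and 9 were lower in KO (median -0.19 log2 units), whereas Ctsk was higher. Of the 6 osteoclast markers 4 were measured, with sums of 129.9 to 139.5 in KO_PyMT and 139.7 to 205.6 in WT_PyMT, with 128.3 to 135.6 in KO_MCA and 108.3 to 156.4 in WT_MCA. Calcr and Atp6v0d2 did not pass the filter. The part of these cells in the Ctsk values was not tested, and in sorted pools fewer cells of a type and less RNA per cell cannot be told apart.

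The genes with the profile most like Ctsk, by the root mean square difference of centred log2 values over the 8 group arrays among 14102 other genes, were Mmp9 (0.43) and Slc9b2 (0.55). Mmp9, which encodes the matrix protease gelatinase B, read 5.34 and 4.91 in KO_PyMT, 4.89 and 4.56 in WT_PyMT, 8.40 and 9.20 in KO_MCA, and 5.09 and 7.98 in WT_MCA. Slc9b2, a sodium and proton exchanger, read 4.18 and 4.08 in KO_PyMT, 4.18 and 4.07 in WT_PyMT, 7.33 and 7.10 in KO_MCA, and 4.22 and 5.67 in WT_MCA. On these probes both genes shared the gap between the WT_MCA arrays, with replicate 2 the higher. A dimmer Slc9b2 probe (ILMN_1255047) read 5.86 to 6.47 in KO_MCA and 4.20 to 4.25 in WT_MCA, where neither array was above background and no such gap was seen. KO minus WT in MCA was 2.27 ± 0.84 log2 units (SE) for Mmp9 and 2.27 ± 0.43 for the brighter Slc9b2 probe, each with an adjusted p of 1 in limma with Benjamini-Hochberg adjustment. The likeness is a description over arrays that share their samples and BeadChips. Both genes were picked for it on these same arrays, so their gap and KO minus WT values are no separate support for Ctsk.

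**Figure D2:**
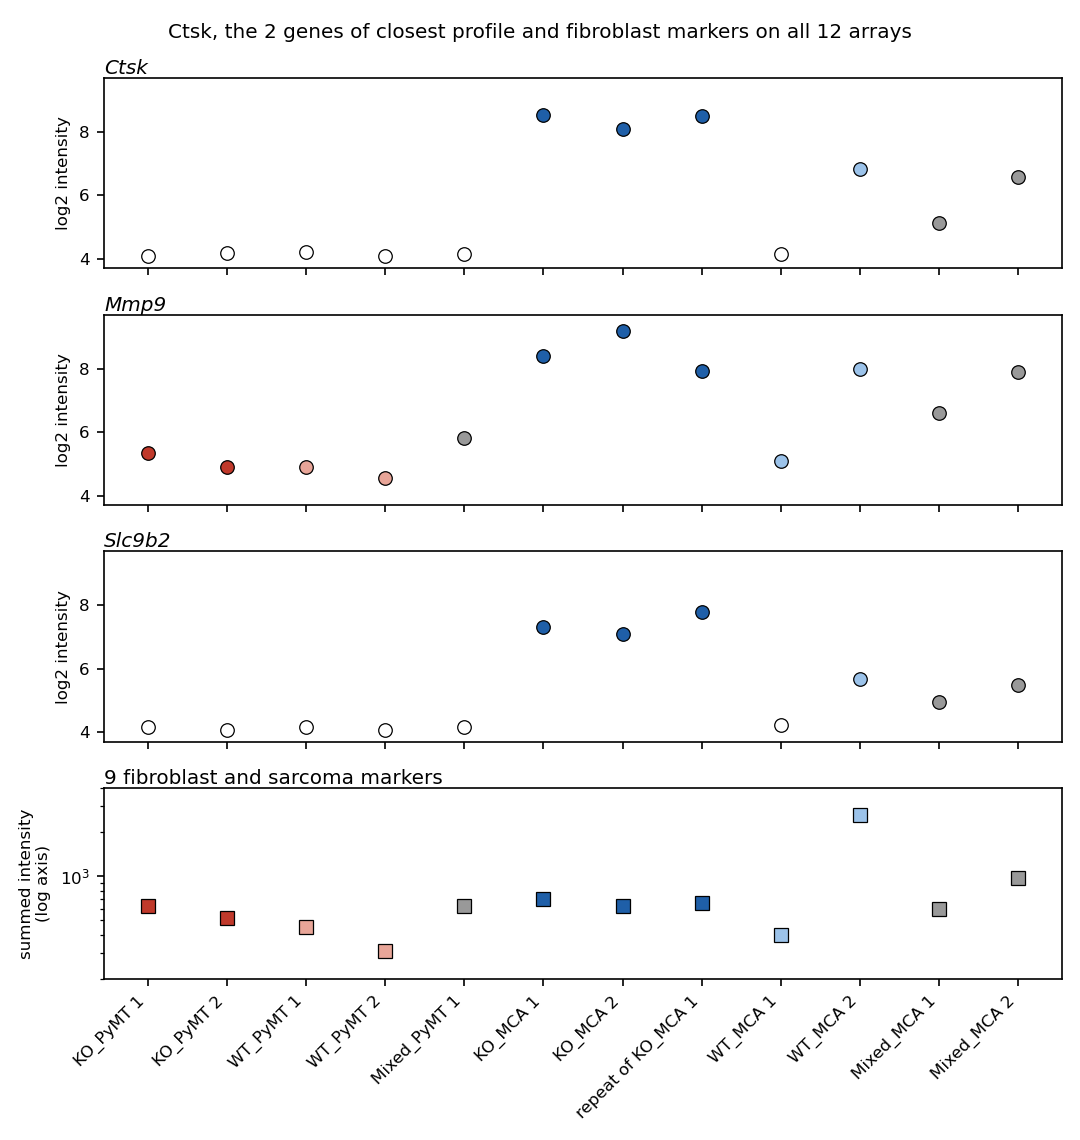
Log2 intensity of Ctsk, Mmp9 and Slc9b2 and the summed linear intensity of 9 fibroblast and sarcoma markers (log axis) on all 12 arrays, 1 point per array. Open points are not above background and grey points are mixed controls. For all 3 genes WT_MCA replicate 1 sits far below the KO_MCA arrays, while the marker sum peaks at 2624 on WT_MCA replicate 2.

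Lgmn encodes legumain, the asparaginyl endopeptidase that cleaves several cathepsins to their 2-chain forms. Its probe read 8.69 and 8.54 in KO_PyMT, 8.91 and 9.06 in WT_PyMT, 8.98 and 8.86 in KO_MCA, and 9.38 and 9.09 in WT_MCA. Within each tumour both KO arrays lay below both WT arrays. The repeat of KO_MCA replicate 1 read 9.10, just above WT_MCA replicate 2 at 9.09, so the separation in MCA did not hold on a second array of the same sample. The order of group means was WT_MCA, WT_PyMT, KO_MCA and KO_PyMT from high to low, and only WT_PyMT and KO_MCA overlapped among neighbours. KO minus WT was -0.37 ± 0.19 log2 units in PyMT and -0.31 ± 0.19 in MCA (SE, n = 2 each). Over both tumours it was -0.34 ± 0.13 (SE, n = 4 each, 95% interval -0.64 to -0.04), with an adjusted p of 0.925 in limma with Benjamini-Hochberg adjustment and 0.0294 before adjustment. Leaving out each array in turn gave -0.41 to -0.29. The difference between the effects in the tumours was -0.06 ± 0.27.

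Groups without overlap were common among all probes with so few arrays, so each count of members is set beside its share of all probes. In PyMT tumours both KO arrays lay on 1 side of both WT arrays for 4 of 19 member probes, 2 higher and 2 lower, against 35.7% of all probes (17% higher, 18.7% lower). The higher ones were Ctsd and the dimmest Ctsc probe, and the lower ones were Lgmn and the next to brightest Ctsa probe. Other probes of these genes went the other way with overlap: the brighter Ctsc probes at -0.085 and -0.144 and the brightest Ctsa probe at 0.18. In MCA tumours 12 of 19 did so, 4 higher and 8 lower, against 30.8% of all probes (15.9% higher, 14.8% lower). The higher ones were Ctsk, Ctsd, Ctsl and the brightest Ctsa probe. The lower ones were Lgmn, every Ctsc probe, the dimmer Ctsh probe, the brightest Ctsz probe and the Ctsa probes ILMN_2681631 and ILMN_3120827. Several of the lower probes thus share a gene. The repeat array of KO_MCA replicate 1 did not keep this separation for Ctsd, Ctsl and Lgmn. It was also lost there for the middle Ctsc probe, the dimmer Ctsh probe and the brightest Ctsz probe. The other separated probes kept it. Over both tumours, with 4 arrays against 4, the count was 0 of 19, against 2.29%. The median KO minus WT value over the member probes was 0.01 in PyMT and -0.10 in MCA, beside medians of -0.001 and 0.001 over all probes. At an unadjusted p under 0.05 there were 0 member probes in PyMT (10.6% of all probes), 1 in MCA (1.5%) and 1 over both tumours (4.91%).

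**Figure D3:**
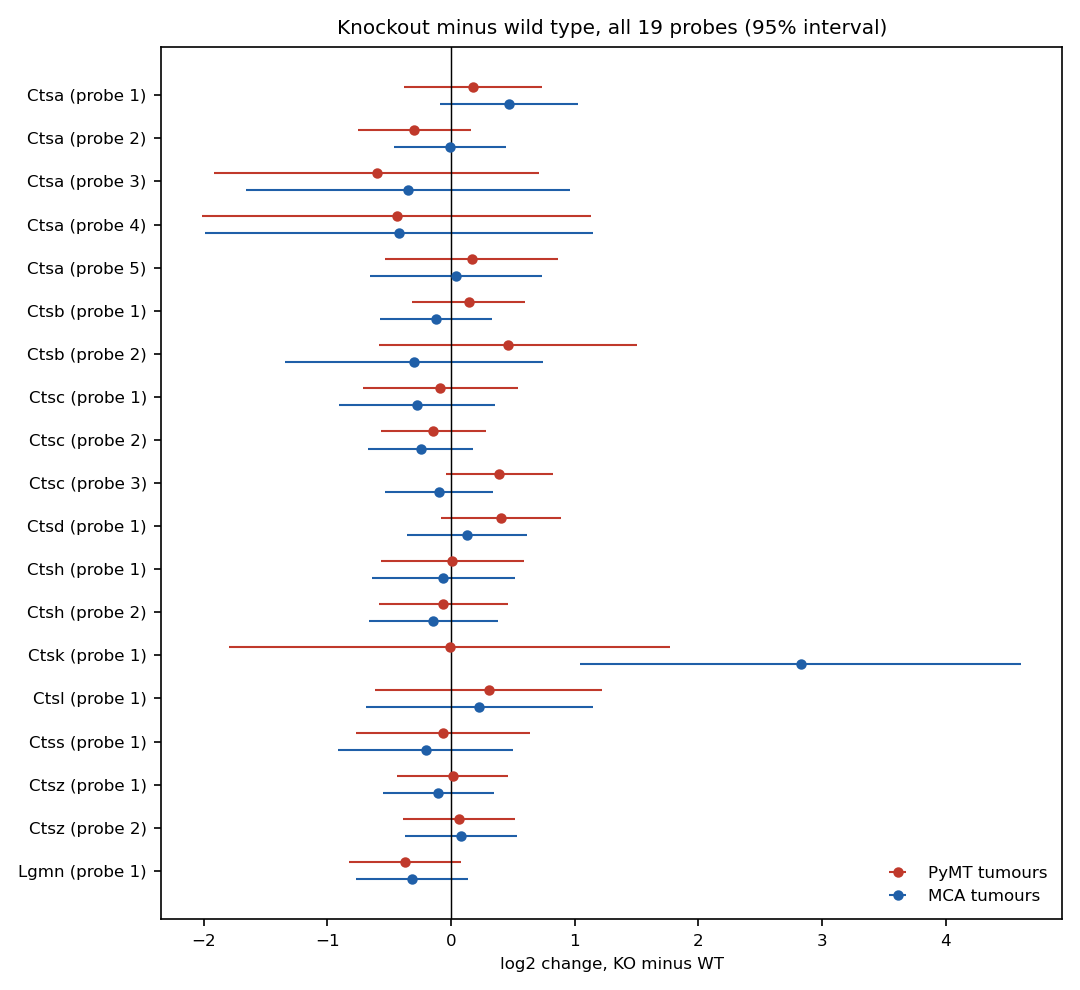
KO minus WT difference in log2 units (horizontal axis) for each of the 19 probes, with 95% intervals from limma, in PyMT and MCA tumours. Probes of a gene are numbered from the brightest. In MCA only the Ctsk interval (1.04 to 4.61) excludes 0, and in PyMT no interval does.

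For the other cysteine endopeptidases, no genotype difference passed the threshold. Ctsb encodes cathepsin B, a cysteine protease with endopeptidase and carboxypeptidase activity. Its brightest probe read 10.77 and 10.55 in KO_PyMT, 10.58 and 10.46 in WT_PyMT, 10.12 and 10.31 in KO_MCA, and 10.45 and 10.23 in WT_MCA. KO and WT overlapped within each tumour, with a KO minus WT difference of 0.14 (95% interval -0.31 to 0.60) in PyMT and -0.12 (-0.58 to 0.33) in MCA. Every PyMT array lay above every MCA array, by 0.31 ± 0.14 (SE, n = 4 each), with an adjusted p of 0.35 in limma with Benjamini-Hochberg adjustment. These are the group arrays, and a mixed MCA control read 10.62, above 3 of the 4 PyMT arrays. The dimmer Ctsb probe overlapped between tumours, at 0.55 ± 0.32. Ctsl encodes cathepsin L, which degrades the invariant chain in the thymus. Its probe read 6.15 and 7.12 in KO_PyMT, 5.90 and 6.76 in WT_PyMT, 6.55 and 6.49 in KO_MCA, and 6.33 and 6.26 in WT_MCA. All neighbours in the order of group means overlapped, and PyMT replicates lay further apart than MCA replicates. Within MCA both KO arrays lay above both WT arrays, by 0.23 ± 0.39 log2 units (SE), and in PyMT the difference was 0.31 ± 0.39 with overlap. That SE is the pooled one, and does not give the spread within MCA. The SD of the replicates was 0.042 in KO_MCA and 0.05 in WT_MCA, against 0.685 in KO_PyMT and 0.605 in WT_PyMT. The repeat of KO_MCA replicate 1 read 6.22, below both WT_MCA arrays. Ctss encodes cathepsin S, which degrades the invariant chain in antigen-presenting cells. Its probe read 7.46 and 7.12 in KO_PyMT, 7.24 and 7.47 in WT_PyMT, 7.33 and 7.17 in KO_MCA, and 7.86 and 7.05 in WT_MCA. No pair of neighbouring groups was separated for Ctss. KO minus WT was -0.06 (95% interval -0.77 to 0.64) in PyMT and -0.21 (-0.91 to 0.50) in MCA, so a change by more than 1 log2 unit in either direction lay outside both intervals.

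Ctsd encodes cathepsin D, the aspartic endopeptidase of the lysosome. Its probe read 7.30 and 7.00 in KO_PyMT, 6.90 and 6.59 in WT_PyMT, 6.35 and 6.41 in KO_MCA, and 6.17 and 6.32 in WT_MCA. The 4 groups did not overlap at any step of the order KO_PyMT, WT_PyMT, KO_MCA and WT_MCA. PyMT minus MCA over both genotypes was 0.64 ± 0.15 log2 units (SE, n = 4 each, 95% interval 0.30 to 0.98). The adjusted p was 0.126 in limma with Benjamini-Hochberg adjustment, the smallest among the member probes in this comparison. KO minus WT was 0.41 ± 0.21 in PyMT and 0.13 ± 0.21 in MCA, with adjusted p of 0.558 and 1. The repeat of KO_MCA replicate 1, on the PyMT BeadChip, gave 6.31, below every PyMT array but also just below WT_MCA replicate 2 at 6.32. A mixed MCA control read 6.69, above WT_PyMT replicate 2 at 6.59. The separation thus holds for the group arrays only. Under median scaling in place of quantile normalization the tumour difference was 0.38, where the median over all probes was itself shifted by -0.12.

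Among the exopeptidases, probes of Ctsz and of Ctsc lay on opposite sides between the tumours, without passing the threshold. Ctsz encodes cathepsin Z, a lysosomal carboxypeptidase. Its brightest probe read 9.18 and 9.40 in KO_PyMT, 9.41 and 9.14 in WT_PyMT, 8.77 and 8.73 in KO_MCA, and 8.81 and 8.89 in WT_MCA. Every PyMT array lay above every MCA array, by 0.48 ± 0.13 log2 units on average for this probe and 0.43 ± 0.13 for the other (SE, n = 4 each). Their adjusted p were 0.165 and 0.194 in limma with Benjamini-Hochberg adjustment. The repeat array on the PyMT BeadChip read 8.87 and 8.70 on these probes, within the range of the MCA arrays and below all PyMT arrays. KO and WT overlapped in PyMT for both probes. In MCA both KO arrays lay below both WT arrays on the brightest probe, by -0.10 ± 0.19, and overlapped with them on the other. On the brightest probe the repeat of KO_MCA replicate 1, at 8.87, lay above WT_MCA replicate 1 at 8.81.

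Ctsc encodes cathepsin C, the dipeptidyl peptidase that activates serine proteases of immune cell granules. Its brightest probe read 9.44 and 10.12 in KO_PyMT, 9.77 and 9.96 in WT_PyMT, 9.72 and 10.05 in KO_MCA, and 10.17 and 10.14 in WT_MCA. On this probe the tumours overlapped. On the other Ctsc probes every PyMT array lay below every MCA array, by -0.42 ± 0.12 and -0.47 ± 0.15 log2 units (SE, n = 4 each), with adjusted p of 0.19 and 0.222. The mixed controls did not keep to this: on the brighter of these probes the mixed PyMT control read 8.32, above every MCA group array, and a mixed MCA control read 7.62, below 1 of the PyMT arrays. On the dimmer one the same mixed MCA control read 6.42, below 3 of the 4 PyMT arrays. Within MCA both KO arrays lay below both WT arrays on every Ctsc probe, by -0.276, -0.245 and -0.097 from the brightest down. On the middle probe the repeat of KO_MCA replicate 1 read 8.18, above WT_MCA replicate 2 at 8.08. In PyMT the KO minus WT values were -0.085, -0.144 and 0.392. Ctsh encodes cathepsin H, an aminopeptidase. Its brightest probe read 9.82 and 9.28 in KO_PyMT, 9.45 and 9.63 in WT_PyMT, 9.11 and 9.39 in KO_MCA, and 9.43 and 9.20 in WT_MCA. Its tumours overlapped, with PyMT minus MCA of 0.26 ± 0.16 on this probe and 0.28 ± 0.15 on the other. KO and WT overlapped on the brightest Ctsh probe in both tumours, with KO minus WT of 0.01 in PyMT and -0.06 in MCA.

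Ctsa encodes cathepsin A, a serine carboxypeptidase that also protects lysosomal beta-galactosidase and neuraminidase. Its probes did not give 1 pattern. The brightest read 9.22 and 9.50 in KO_PyMT, 9.38 and 8.97 in WT_PyMT, 9.54 and 9.71 in KO_MCA, and 8.98 and 9.33 in WT_MCA, with PyMT minus MCA of -0.12 ± 0.17. Another probe (ILMN_2681631), assigned to the same transcript, read 6.63 and 5.99 in KO_PyMT, 7.82 and 6.01 in WT_PyMT, 4.86 and 5.20 in KO_MCA, and 5.34 and 5.41 in WT_MCA. On it every PyMT array lay above every MCA array, by 1.41 ± 0.37, with an adjusted p of 0.158 in limma with Benjamini-Hochberg adjustment. A dimmer probe (ILMN_3120827), on the other transcript, averaged 1.33 ± 0.43 higher in PyMT, with an adjusted p of 0.226. Both of these probes were highest on WT_PyMT replicate 1, at 7.82 and 7.26, and on the mixed PyMT control they read 5.24 and 4.58, below every PyMT group array on the same probe. No direction is given for Ctsa between tumours.

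Between tumours over both genotypes, 7 of 19 member probes had groups without overlap, 5 higher and 2 lower in PyMT, against 10.2% of all probes (4.48% higher, 5.71% lower). In KO macrophages the count was 14 of 19, against 44.6%, and in WT macrophages 10 of 19, against 41.2%. At an unadjusted p under 0.05 there were 8 member probes over both genotypes (14.6% of all probes), 3 in KO macrophages (13.2%), 4 in WT macrophages (7.87%) and 1 for the difference of the knockout effect between tumours (5.68%). The higher probes without overlap belonged to Ctsd, Ctsz, Ctsb and Ctsa and the lower ones to Ctsc. The median PyMT minus MCA value over the member probes was 0.11, beside -0.002 over all probes. Under median scaling the differences of the brightest probes were 0.22 for Ctsz, 0.11 for Ctsb, 0.01 for Ctsh and -0.40 for Ctsc. Marker sums moved with the tumour too. The 6 measured of 10 epithelial and mammary markers summed to 241.7 to 403.3 in KO_PyMT and 334.1 to 453.8 in WT_PyMT, with 157.9 to 171.6 in KO_MCA and 167.3 to 167.8 in WT_MCA. Of these, Csn3, a milk protein gene, was called over both genotypes, at least 2.85-fold higher in PyMT than in MCA where it was not well above background (adjusted p of 0.0185 in limma with Benjamini-Hochberg adjustment). Csn3 had 2 probes that passed the filter, and only the brighter one is given. The 5 measured of 9 T and NK cell markers summed to 215 to 233.5 in KO_PyMT and 203.9 to 206.2 in WT_PyMT, with 131.8 to 143.6 in KO_MCA and 127 to 139.1 in WT_MCA. Of the epithelial markers Krt5, Krt19, Csn2 and Wap, and of the T and NK cell markers Cd3g, Cd8a and Gzmb, were on the array and did not pass the filter. Over both genotypes, 7 of 7 measured dendritic cell markers were higher in PyMT (median 0.28 log2 units), while 4 of 4 monocyte markers (median -0.60), 10 of 12 macrophage markers (median -0.30) and 7 of 9 fibroblast and sarcoma markers (median -0.69) were lower, with none of these called. The part of these cells in the member values was not tested.

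**Figure D4:**
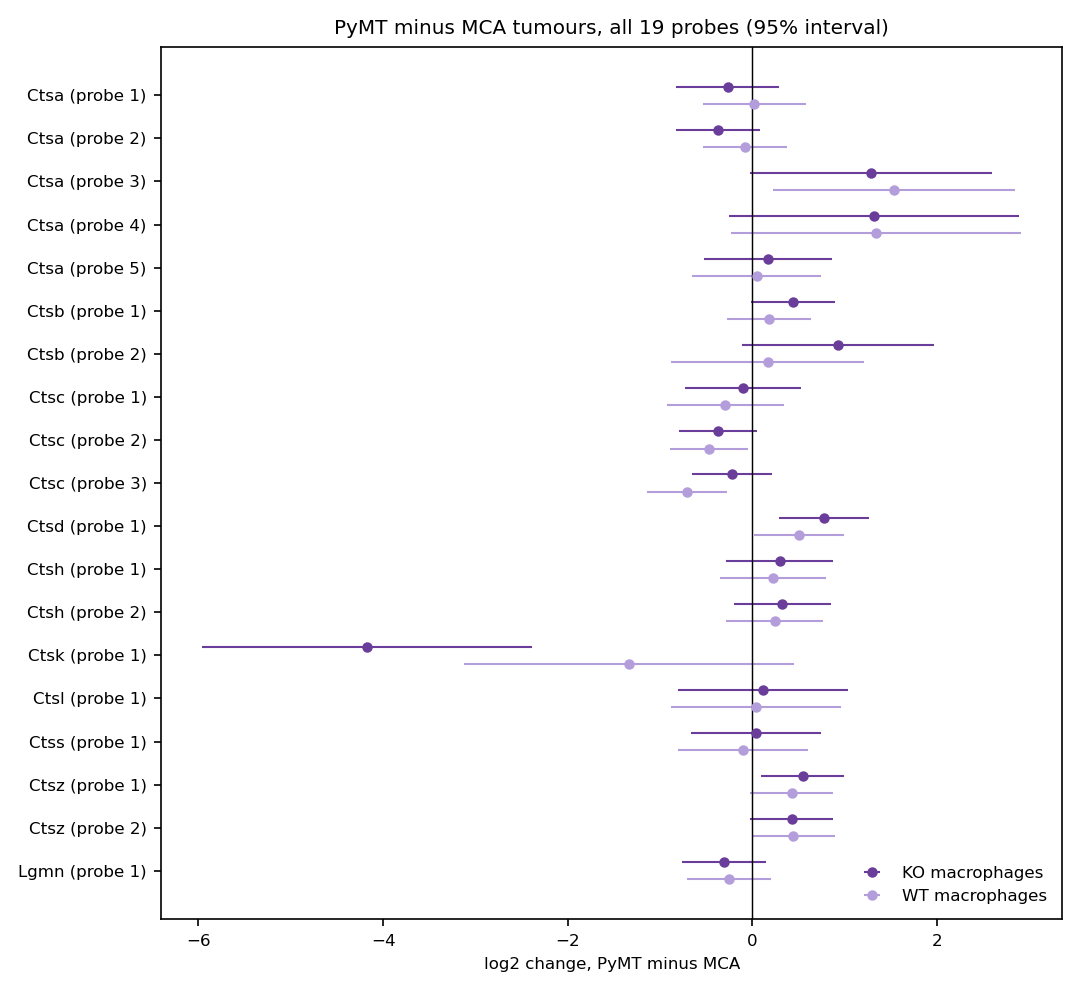
PyMT minus MCA difference in log2 units (horizontal axis) for each of the 19 probes, with 95% intervals from limma, in KO and WT macrophages. Probes of a gene are numbered from the brightest. Ctsk in KO macrophages lies at -4.17, a fitted value that its background level in PyMT limits. The estimates of both Ctsz probes and Ctsd lie above 0 and those of all 3 Ctsc probes below 0. Both Ctsd intervals exclude 0. For Ctsz only that of the brightest probe in KO does so, and for Ctsc only those of the dimmer probes in WT.

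The members were set beside the rest of the lysosomal system. Each listed gene is represented by its brightest probe that passed the filter, and values of other probes are not given. Mitf and Vps26a, named below, each had 2 probes that passed. Of 91 genes in 6 lists, covering other cathepsins and related proteases, endogenous inhibitors, sorting of lysosomal enzymes, the proton pump (V-ATPase), lysosomal membrane proteins and hydrolases, and regulators of lysosomal genes, 71 passed the filter. None was called in any comparison, and 6 of the 71 had an unadjusted p under 0.05 for KO against WT over both tumours, where 4.91% of all probes did. Within PyMT tumours 7 of the 71 did, beside 10.6% of all probes, and within MCA tumours 1 of the 71 did, beside 1.5%. The proton pump genes numbered 10 higher and 3 lower in KO over both tumours (median 0.19), the inhibitors 6 higher and 1 lower (median 0.17), and the membrane proteins and hydrolases 5 higher and 14 lower (median -0.10). The median over all probes was 0.001. Other cathepsins and related proteases numbered 4 higher and 7 lower (median -0.04), sorting genes 7 higher and 5 lower (median 0.02), and regulators 5 higher and 3 lower (median 0.11).

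The smallest p over both tumours belonged to Atp6v1b2 and Mitf, which were also first in MCA tumours, whose arrays are part of that comparison. Genes named in this paragraph were picked for small p on these same arrays. Their differences and separations are therefore no separate support for a knockout effect. Atp6v1b2, a subunit of the proton pump, read 8.65 and 8.47 in KO_PyMT, 8.43 and 8.13 in WT_PyMT, 9.17 and 9.01 in KO_MCA, and 8.13 and 8.30 in WT_MCA. Every KO array lay above every WT array, by 0.58 ± 0.17 log2 units (SE, n = 4 each), with an adjusted p of 0.925 in limma with Benjamini-Hochberg adjustment. Among all probes 2.29% had such a separation, in either direction. Mitf, a transcription factor of the E-box family, read 7.77 and 7.04 in KO_PyMT, 6.24 and 6.90 in WT_PyMT, 7.82 and 7.61 in KO_MCA, and 6.78 and 7.23 in WT_MCA. Its KO minus WT was 0.78 ± 0.23, with the same adjusted p of 0.925 and with overlap across tumours. In PyMT tumours the smallest p belonged to Vps26a, a subunit of the retromer that recycles sorting receptors, and Zkscan3, a repressor of lysosomal genes. Vps26a read 8.79 and 8.91 in KO_PyMT and 7.35 and 8.09 in WT_PyMT, a difference of 1.13 ± 0.26 with an adjusted p of 0.221. Zkscan3 read 6.10 and 7.08 in KO_PyMT and 5.32 and 4.90 in WT_PyMT, a difference of 1.48 ± 0.37 with an adjusted p of 0.246.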

How the data were processed

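Intensity and detection p-value per probe were taken from the non-normalized values that the authors deposited. Per the file headers each probe has a mean signal, linear and without background subtraction, and a p-value. The sources used here do not give how that p-value was computed. A second set of intensity values, which the authors normalized before they deposited them, served as an alternative. Per the labels' protocols, RNA from pooled sorted cells was amplified, and both the µMACS SuperAmp and NuGEN Ovation Pico kits are named.

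All 12 arrays were background-corrected and quantile normalized together with neqc of limma 3.58.1 in R 4.3.3 (offset 16), with the data.table package (version 1.17.8), and are given as log2 intensity. A probe was tested where its detection p was under 0.05 on 2 or more of the 8 group arrays. A limma model of 4 group means (residual df 4, prior df 2.81) gave the comparisons within a tumour or genotype and their difference. An additive model (residual df 5, prior df 2.95) gave those over both. Both models estimate the spread of a probe from all 8 group arrays together. P-values were two-sided and adjusted by the Benjamini-Hochberg method over 26748 probes. The fits were run on simulated data with the same spread of a probe in every group and changes in KO_PyMT only. That run does not show how they behave under the unequal spread of the real groups. Probe symbols came from the platform annotation, of which 937 were updated through RefSeq, and 10453 probes were unlisted. Members, lists and rules were chosen with earlier results of these data known. All members are named. Genes of the marker and related lists are counted and valued by their brightest probe that passed. Of the lists, the 2 genes of smallest p per genotype comparison are named, and nearest profiles are named for members whose group means span over 1 log2 unit. Same-numbered replicates deviated together with correlations of -0.003 in PyMT and 0.075 in MCA, so the numbers were not taken as pairs. Alternatives in background correction, normalization, filter, probes per gene, array weights, replicate block, BeadChip and arrays left out were tried. The number of arrays limits the precision.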

Additional observations from a re-analysis of the deposited data

Results flagged for a closer look

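Some member values stood out on arrays outside the comparisons reported here. On the mixed PyMT control, Ctsd read 7.90 in log2 intensity, above the WT_PyMT range of 6.59 to 6.90 and above both KO_PyMT arrays. On the same array the dimmer Ctsb probe read 7.27, above the WT_PyMT range of 5.54 to 6.40. On the repeat array of KO_MCA replicate 1, Ctsk read 8.50, above the WT_MCA range of 4.17 to 6.83 and close to the 8.55 of the first array of that sample. The sources used here do not say what the mixed control holds, and none of these differences was tested.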

How the results depend on the processing

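Over the alternatives tried, the number of member probes called stayed at 0 with 3 exceptions, all of them Ctsk. With an array left out, the count for PyMT against MCA ranged from 0 to 1 in KO macrophages and from 0 to 1 over both genotypes, and the 1 arose without WT_MCA replicate 1 or 2 in KO macrophages and without WT_MCA replicate 1 over both. Over its alternatives the adjusted p of Ctsk in KO macrophages ran from 0.021 to 0.546. With the mean of the probes of a gene in place of the brightest probe, Ctsa in KO macrophages reversed to 0.43 for PyMT minus MCA, against -0.27, since 3 of its 4 dimmer probes run the other way. With the replicate number as a replicate block, 0 member probes were called in the genotype comparisons, and the block changed no call. Across all probes, the count called for PyMT against MCA over both genotypes was 44 (33 higher, 11 lower), 253 under median scaling (44 higher, 209 lower) and 10 with BeadChip as a term, a fit that adds the repeat array and rests on that 1 array. Median scaling moved the median of all probes in this comparison to -0.12, and the Ctsl difference to -0.21 against 0.08. Over all settings the count of probes called for PyMT against MCA ran from 1 to 139 in KO macrophages (20 as reported) and from 0 to 22 in WT macrophages (7 as reported). For KO against WT it ran from 0 to 154 in PyMT, with 154 without KO_PyMT replicate 1 (0 as reported), from 0 to 2 over both tumours and stayed at 0 in MCA, and for the difference between tumours it ran from 0 to 1. The cause of these shifts was not tested. Ctsk in PyMT tumours and on WT_MCA replicate 1, and the dimmest Ctsa probe on KO_PyMT replicate 1, were not above background.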
